A study of Arabidopsis thaliana with 38 samples.

Results

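The cold response of polysomal RNA was measured in rosettes of the Arabidopsis thaliana mutant atcsp1-1. The comparison takes 4 of the 38 arrays of the study, namely polysomal RNA of atcsp1-1 after 12 h of cold (2 arrays) and polysomal RNA of atcsp1-1 kept in non-stress conditions (2 arrays). All 22746 probe sets of the ATH1 array that are not control probe sets were compared, of 22810 on the array. Whole rosettes of 25-day-old plants of the Col-0 accession were used. atcsp1-1 is a single mutant line of the gene for the cold shock protein CSP1, and both groups carry the mutation. Cold plants were held at 4 °C under light of about 50 µE per s per m2, and non-stress plants at 23 °C under about 100 µE per s per m2, so temperature and light level cannot be told apart. The treatment started 2 h into the light period. Polysomal RNA is RNA recovered from the part of a sucrose gradient that holds mRNAs with at least 2 ribosomes.

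The study as a whole used 3 lines, 2 conditions and 3 RNA pools, with 2 to 3 biological replicates. Both other lines express a tagged protein from the constitutive 35S promoter. HF-RPL18 carries a tagged ribosomal protein and has 3 polysomal arrays per condition, and CSP1-FH (35S:AtCSP1-FH#11) carries a tagged CSP1 and has 2. Their polysomal arrays and the 4 total RNA arrays of atcsp1-1 serve here for comparison, and none of these comparisons shares an array with that of atcsp1-1 polysomal RNA.

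Cold shock proteins bind RNA through a cold shock domain, and some of them act as RNA chaperones that loosen secondary structure which becomes more stable in the cold. Plants that meet low temperature express CBF transcription factors, which switch on genes for dehydrins and other protective proteins. An mRNA that carries several ribosomes is taken to be under translation, so polysomal RNA is a view of which transcripts are being translated at a time, and it follows both the amount of an mRNA and its ribosome loading.

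The values are log2 expression values on which a difference of 1 is a 2-fold change. They are scaled per array, so a change in the total amount of polysomal RNA was not measured, and in whole rosettes fewer cells of a type cannot be told apart from less RNA per cell. The 4 arrays were alike in their medians (4.24 to 4.41) and in their SD over probe sets (2.23 to 2.30). The replicate pairs correlated at 0.9823 in non-stress and 0.9857 in cold across probe sets, and 710 and 540 probe sets differed by more than 1 within those pairs. The GAPDH control, which compares the 3′ with the 5′ end of its mRNA, differed by 1.04 to 1.97 on these arrays. The actin control of the same kind differed by more, 3.50 to 3.94. Over all 38 arrays of the study, nuclear photosynthesis genes, which mark leaf tissue, had a median level of 11.9, against 2.91 for the pollen markers. CSP1 has no named probe set here, so the loss of its transcript in the mutant was not checked.

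After 12 h of cold, 665 probe sets were higher and 764 were lower on polysomes of atcsp1-1 at an adjusted p below 0.05 (limma, Benjamini-Hochberg over all 22746 probe sets). These are 2.92% and 3.36% of the probe sets tested, together 6.28%. The rises were the steeper changes. Of the 665 higher probe sets, 255 passed 4-fold and 39 passed 16-fold, with a median difference of 1.71 and a largest of 7.65. Of the 764 lower probe sets, 140 passed 4-fold and 3 passed 16-fold, with a median of -1.45 and a largest of -4.18. Over all probe sets the median difference was -0.04. Centring each array on its median, an alternative scaling, turned the split to 829 higher and 603 lower. Without non-stress array 1 or 2 there were 769 and 744 calls, without cold array 1 or 2 there were 796 and 709, and a fit without the arrays of RNA immunopurified with CSP1 (CSP1-IP), which lend their spread to the test, made 2599.

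In all 1429 called probe sets the cold arrays did not overlap the non-stress arrays, which was also the case for 48.2% of all probe sets (20.5% higher and 27.7% lower in cold). Called probe sets lay mostly at middle and high levels. All probe sets were ranked by mean level over all 38 arrays of the study and split into 4 equal bins. The lowest bin held 3 higher and 1 lower calls and the highest bin held 348 and 350. The annotation gave 1 gene for 319 of the higher and 406 of the lower probe sets and had no entry for 339 and 335. Of 144 genes with several probe sets, 13 had at least 1 called, and 0 had calls in both directions.

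**Figure D1:**
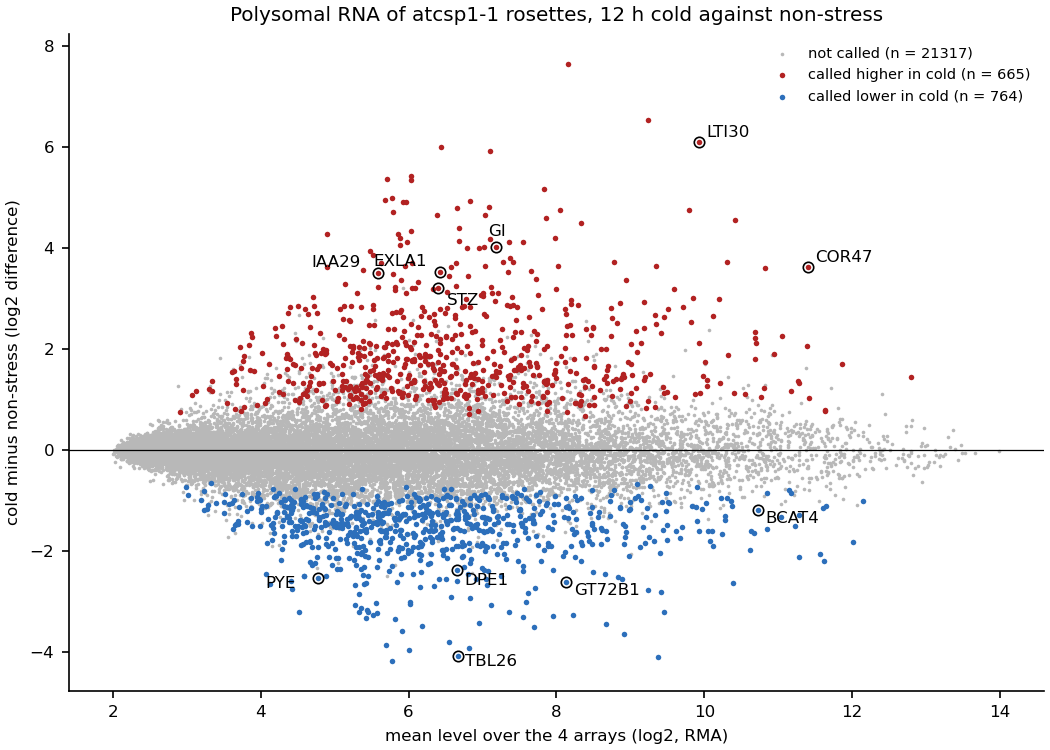
Each point is a probe set, with its mean level over the 4 polysomal arrays of atcsp1-1 (log2) on the horizontal axis and the cold minus non-stress difference (log2) on the vertical axis. Red points are the 665 called higher and blue points the 764 called lower by limma, and the rises reach 7.65 while the falls end at -4.18.

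The largest rise of a named gene was that of the dehydrin gene LTI30 (AT3G50970). Dehydrins are hydrophilic proteins that accumulate in drying and chilled tissue and protect membranes and proteins. LTI30 stood at 6.27 and 7.50 on the non-stress arrays and at 12.92 and 13.03 on the cold arrays. The nearest arrays of both groups lay 5.41 apart, and the difference was 6.09 ± 0.55 (SE), or 68.1-fold, with an adjusted p of 3.07e-08. In total RNA of the mutant the difference was 7.01, and in polysomal RNA it was 7.10 in HF-RPL18 and 7.07 in CSP1-FH. The cold response of LTI30 was thus 1.01 smaller than in HF-RPL18, with a 95% interval from -2.47 to 0.45 that includes 0. On average over arrays, its non-stress level was the highest of the 6 line and pool combinations.

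The other 11 of the 12 largest rises among probe sets with 1 gene were those of GI and of 10 genes known here only by their locus. AT5G62280 stood at 3.31 and 3.24 in non-stress and at 8.56 and 7.99 in cold. AT5G20790 went from 3.48 and 3.56 to 8.73 and 8.12. Both started near the bottom of the scale and ended in the upper part of it, with differences of 5.00 ± 0.53 and 4.91 ± 0.46. AT3G55580 stood at 3.22 and 3.65 in non-stress and at 8.26 and 8.03 in cold, a difference of 4.71 ± 0.37 (adjusted p = 2.33e-09). AT3G15450 reached 11.96 and 12.38 in cold from 6.75 and 8.07. AT1G73480 reached 9.05 and 9.04 from 3.64 and 4.88. In these last 3 genes, the cold arrays were closer to each other than the non-stress arrays were. AT1G52200, AT1G68500, AT4G21870 and AT1G11210 rose by 4.80, 4.59, 4.21 and 4.17.

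AT5G62360 and GI, described with the clock genes, were the least certain of these rises by adjusted p. For AT5G62360 the non-stress arrays read 6.94 and 9.36 and the cold arrays read 12.62 and 12.77. The groups did not overlap, yet the non-stress arrays were 2.42 apart, and the difference of 4.55 had an SE of 1.26 and an adjusted p of 0.0256. Leaving out non-stress array 1, cold array 1 or cold array 2 ended the call, with an adjusted p of up to 0.315. All 12 rises were called in total RNA of atcsp1-1 and in polysomal RNA of HF-RPL18 and of CSP1-FH too. The probe set with the largest rise of all has no gene in the annotation. It stood at 4.61 and 4.06 in non-stress and at 12.03 and 11.94 in cold, a difference of 7.65 or 201-fold. The next such probe set without a gene rose by 6.54 or 93.1-fold.

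The 12 largest falls ran from 9.25-fold to 16.9-fold and were led by TBL26, described with the cell wall genes. AT1G30250 stood at 8.23 and 9.32 in non-stress and at 4.58 and 5.15 in cold, a fall of 3.92 (adjusted p = 4.01e-05). AT2G34620 stood at 8.45 and 8.47 in non-stress and at 4.32 and 4.97 in cold, a fall of 3.81 (adjusted p = 7.39e-07). AT1G19960 fell from one of the higher levels, 10.66 and 10.80, to 6.84 and 7.34. In each of these genes every cold array lay at least 3.09 below every non-stress array. AT1G68600, AT2G19310, AT5G02230, AT5G59670 and AT5G05250 fell by 3.59, 3.50, 3.36, 3.32 and 3.26.

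AT1G30260, which follows AT1G30250 on the chromosome in gene order, stood at 9.38 and 10.33 in non-stress and at 6.39 and 6.78 in cold, a fall of 3.26. AT1G47400 fell by 3.50 from 7.52 and 8.36 to 4.00 and 4.88, with an adjusted p of 0.006 that rose to as much as 0.0945 without cold array 1 or non-stress array 2. AT4G33666 stood at 8.96 on both non-stress arrays and at 4.90 and 6.60 in cold. Its call was lost without cold array 1 (adjusted p = 0.141). All 12 falls were called in total RNA of the mutant and in polysomal RNA of both other lines as well. The largest falls of probe sets without a gene in the annotation were -4.18 and -4.09.

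**Figure D2:**
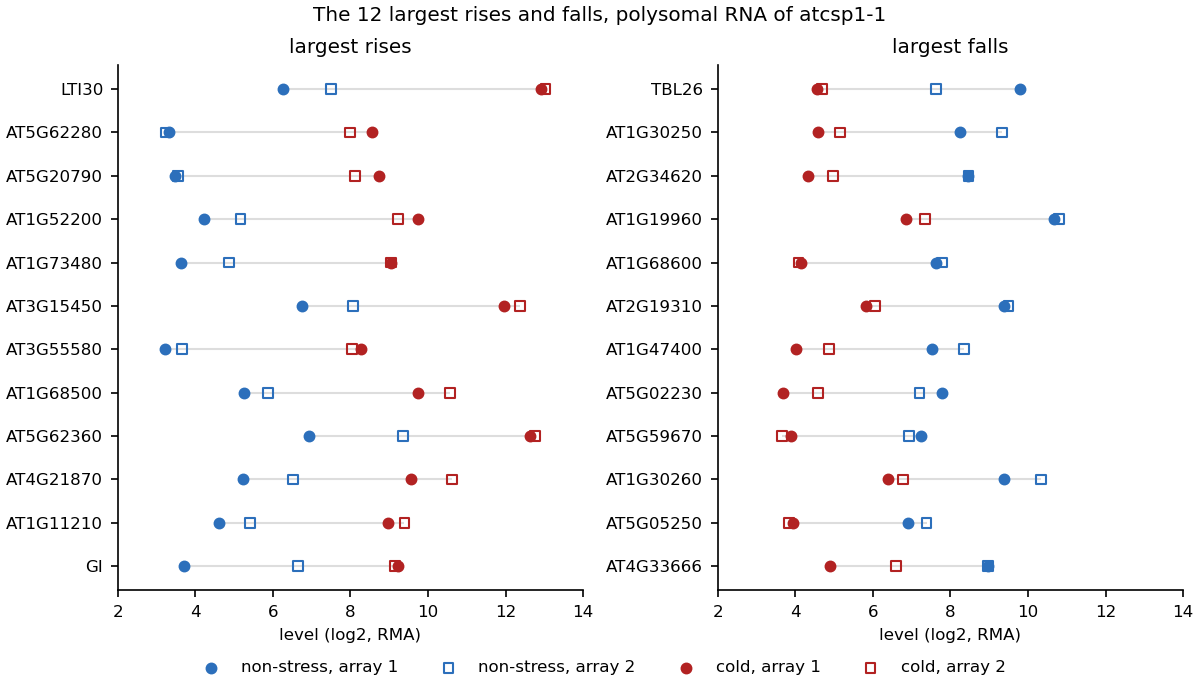
The level (log2) on each of the 4 arrays is shown for the 12 largest rises on the left and the 12 largest falls on the right, with non-stress in blue, cold in red, array 1 filled and array 2 open. In all 24 genes the cold arrays lie clear of the non-stress arrays, and the non-stress arrays are farthest apart in GI (3.70 and 6.64), AT5G62360 (6.94 and 9.36) and TBL26 (9.79 and 7.63).

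Of the CBF regulon, the genes that CBF factors switch on in cold acclimation and their companions, 5 of 24 listed genes had a named probe set, and 4 of these 5 rose. Over all probe sets, 2.92% were called higher and 3.36% lower, shares that also stand beside the list counts below. The median of the 5 was 3.21. With 1 array left out, 2 to 3 of them stayed called. COR47 (AT1G20440), another dehydrin gene, stood at 9.35 and 9.84 in non-stress and at 13.20 and 13.23 in cold. It rose 12.3-fold, by 3.62 ± 0.37 (adjusted p = 2e-07), and ended among the highest levels on the array. STZ (AT1G27730), a zinc finger repressor of transcription that responds to cold, drought and salt, stood at 5.10 and 4.48 in non-stress and at 7.66 and 8.34 in cold. Its difference of 3.21 ± 0.71 had an adjusted p of 0.00447, lost without non-stress array 2 or cold array 2 (up to 0.0805).

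COR15A and COR15B encode small chloroplast proteins that protect membranes during freezing. COR15B (AT2G42530) was high already in non-stress, at 10.51 and 10.65, and stood at 12.03 and 11.86 in cold. It rose by 1.37 ± 0.39 with an adjusted p of 0.03, and leaving out any 1 of the 4 arrays ended that call, with an adjusted p of up to 0.181. COR15A read 11.38 and 10.83 in non-stress and 12.24 and 12.42 in cold. The difference of 1.22 ± 0.62 did not pass the test (adjusted p = 0.352), although the groups did not overlap.

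GI (AT1G22770), a clock gene that also controls flowering time, was the 1 circadian clock gene of 20 listed that had a named probe set. It stood at 3.70 and 6.64 in non-stress and at 9.23 and 9.14 in cold. The cold arrays were 0.0877 apart and the non-stress arrays were 2.94 apart, so the 16.1-fold difference had an SE of 1.08 on a log2 difference of 4.01 and an adjusted p of 0.0205. Leaving out non-stress array 1, cold array 1 or cold array 2, or fitting the 4 arrays alone, ended the call (adjusted p up to 0.382). Between arrays of the same number the difference was 5.53 for number 1 and 2.50 for number 2.

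Further cold and dehydration genes followed in part, with 4 of 13 higher and 0 lower and a median of 0.22. COR27, a cold-regulated gene tied to the clock, stood at 6.45 and 7.28 in non-stress and at 9.51 and 9.95 in cold, a rise of 2.87 ± 0.71. DI21 went from 4.75 and 4.93 to 7.28 and 7.89, a rise of 2.74 ± 0.56. TIL, which encodes a temperature-induced lipocalin, went from 9.57 and 10.01 to 11.44 and 11.74, a rise of 1.80 ± 0.33. For these genes the lowest cold array lay at least 1.43 above the highest non-stress array. SRC2, a gene for a small protein with a C2 domain, rose by 1.33 ± 0.38. Single arrays decided some of these calls. COR27 lost its call without non-stress array 1 or cold array 2 (adjusted p up to 0.14), and SRC2 lost it without non-stress array 1 or cold array 1 (up to 0.371). LEA4-5, a late embryogenesis abundant protein gene, lay on the other side at -0.89 and did not pass (adjusted p = 0.0706).

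**Figure D3:**
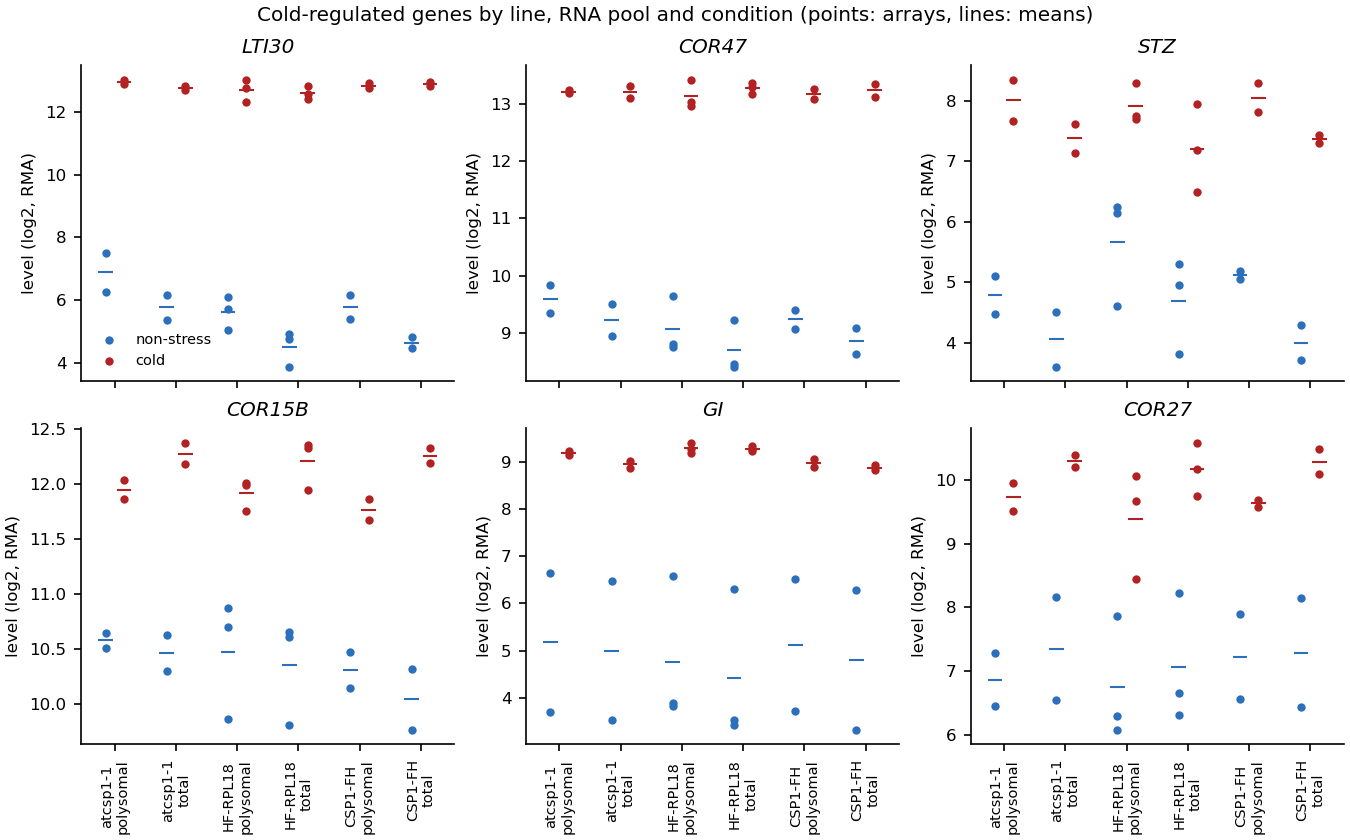
Levels (log2) of LTI30, COR47, STZ, COR15B, GI and COR27 are shown by line and RNA pool, with 1 point per array, non-stress in blue, cold in red and a short line at each mean. In polysomal RNA of atcsp1-1, shown first in every panel, the cold arrays of all 6 genes lie above the non-stress arrays, and GI has a non-stress array near 6.5 in each line and pool.

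Of the hormone signalling genes measured, a few in each list were called. IAA29 (AT4G32280), an Aux/IAA protein that represses auxin responses, stood at 3.52 and 4.13 in non-stress and at 7.77 and 6.91 in cold, a rise of 3.51 ± 0.61 (adjusted p = 0.000335). It was the 1 called gene of 7 Aux/IAA genes, whose median was -0.06. GH3.3, an enzyme that joins auxin to amino acids, stood at 2.95 and 4.67 in non-stress and at 6.55 and 6.27 in cold. It rose by 2.60 ± 0.52 and was the 1 called gene of 5 GH3 genes, with an adjusted p of 0.0017 that became as high as 0.107 without non-stress array 1 or with the 4 arrays fitted alone.

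Of 6 genes for gibberellin receptors and signalling, 2 rose and 0 fell. The gibberellin receptor gene GID1B stood at 3.97 and 3.65 in non-stress and at 5.86 and 5.53 in cold, a rise of 1.88 ± 0.26 (adjusted p = 2.3e-05). SPY, a glycosyltransferase that restrains gibberellin responses, stood at 5.62 and 5.57 in non-stress and at 6.83 and 6.75 in cold, a 2.29-fold rise (adjusted p = 0.000365). The receptor and the repressor thus both rose, with replicate arrays at most 0.329 apart. Of 6 response regulators, RR16, which dampens cytokinin signalling, was the 1 called gene. It fell by 2.04 ± 0.45 from 6.94 and 6.50 to 4.27 and 5.11, and lost the call without non-stress array 1 or cold array 1 (adjusted p up to 0.115).

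Genes for cell wall loosening moved in both directions. Among 29 expansins and xyloglucan hydrolases, 3 rose and 4 fell, with a median of -0.02. The rises were those of expansin-like genes and a xyloglucan hydrolase. EXLA1 (AT3G45970) stood at 4.61 and 4.73 in non-stress and at 8.29 and 8.09 in cold, a rise of 3.52 ± 0.41 (adjusted p = 1.5e-06). EXLA2 rose by 2.08 ± 0.52 from 5.17 and 4.67 to 7.33 and 6.68. XTH33, outside the naming rule, rose by 1.47.

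The falls were led by alpha-expansins, which loosen walls in growing cells. EXPA8 stood at 7.54 and 9.04 in non-stress and at 5.20 and 5.54 in cold, a fall of 2.93 with an SE of 0.84. EXPA16 fell by 2.16 from 7.93 and 7.91 to 5.97 and 5.56. EXLB1 and EXPB1, also outside the naming rule, fell by 1.84 and 1.83. The calls of EXLA2 (without cold array 1 or non-stress array 2, adjusted p up to 0.153), EXPA16 (without cold array 2 or either non-stress array, up to 0.0922) and EXPA8 (without non-stress array 2 or either cold array, up to 0.382) rested on single arrays.

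Trichome birefringence-like genes, which encode enzymes that acetylate wall polysaccharides, gave 1 higher and 2 lower calls among 24 probe sets, with a median of -0.04. These are 4.17% and 8.33% of the list, against 2.92% and 3.36% over all probe sets. TBL26 (AT4G01080) had the largest fall of any named gene. It stood at 9.79 and 7.63 in non-stress and at 4.56 and 4.69 in cold, a fall of 4.08 ± 0.86 or 16.9-fold (adjusted p = 0.00278), and the call was lost without non-stress array 1 (adjusted p = 0.11). TBL45 went the other way, from 7.01 and 7.04 to 8.72 and 8.29, a rise of 1.48 ± 0.24 (adjusted p = 0.000141). TBL35 fell by 0.85 with an adjusted p of 0.0365 that reached 0.308 in other settings, among them each of those without 1 array. Of 15 glycosyl hydrolase 9 cellulases, GH9B8 fell by 1.79, and lost the call without non-stress array 1 or either cold array (adjusted p up to 0.294).

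Glycosyltransferases that attach sugars to small molecules also split. Of 51 genes for UDP-glycosyltransferases, 5 rose and 5 fell, and the median was 0.00. UGT78D3, which adds arabinose to flavonols, stood at 3.23 and 3.19 in non-stress and at 5.43 and 6.58 in cold, a rise of 2.80 ± 0.49 (adjusted p = 0.000403). UGT72B3 rose by 2.48 ± 0.50 from 4.58 and 4.00 to 7.33 and 6.22. GT72B1, its relative that conjugates phenolic compounds, fell by 2.62 ± 0.44 from 9.50 and 9.38 to 7.12 and 6.52 (adjusted p = 0.000261). Relatives of the UGT72B group thus went opposite ways. UGT74B1, which makes the glucose link of glucosinolates, fell by 1.88 ± 0.39 from 8.28 and 7.44 to 6.08 and 5.87. Without cold array 1, the adjusted p of UGT72B3 was 0.0784, and without non-stress array 1 that of UGT74B1 was 0.0849. The other called members, outside the naming rule, were UGT71C2, UGT72E1 and UGT85A4, which rose by 1.36, 1.26 and 0.87, and UGT76E11, UGT85A5 and UGT71B1, which fell by 1.84, 1.73 and 1.70.

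Glucosinolates are sulfur-containing defence compounds of the cabbage family. In a list of 7 genes for their synthesis and transport, put together after values had been seen, 4 fell and 0 rose, with a median of -1.19. BCAT4 (AT3G19710), which starts the lengthening of methionine, stood at 11.27 and 11.38 in non-stress and at 10.30 and 9.97 in cold, a fall of 1.19 ± 0.22 (adjusted p = 0.000555). The same difference was -1.38 in total RNA of the mutant, -0.57 in polysomal RNA of HF-RPL18 and -0.92 in that of CSP1-FH. The glucosinolate transporter gene GTR1 fell by 1.35 ± 0.34, and AOP1 fell by 1.89 ± 0.39 from 5.73 and 5.99 to 3.66 and 4.27. Leaving out cold array 2 or either non-stress array ended the call of GTR1 (adjusted p up to 0.325), and leaving out cold array 1 ended that of AOP1 (0.0628). The fourth was UGT74B1, described above.

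Of 14 glutathione transferases, which conjugate glutathione to reactive compounds, 3 fell and 0 rose. GSTU18 stood at 8.18 and 8.01 in non-stress and at 5.92 and 6.46 in cold, a fall of 1.91 ± 0.32 (adjusted p = 0.000284). GSTU27 fell by 1.92 ± 0.45 and GSTU16 by 1.27 ± 0.37. Of these, GSTU27 lost its call without non-stress array 1 or cold array 2 (adjusted p up to 0.121), and GSTU16 lost it without non-stress array 1 or either cold array and under 3 other settings (up to 0.431). Of 24 cytochrome P450 genes, 3 fell and 0 rose. CYP71B24 fell by 2.75 ± 0.57 from 5.52 and 6.08 to 2.95 and 3.14. CYP71B28 fell by 2.11 ± 0.37 and CYP71B6 by 0.94 ± 0.23, and the call of CYP71B6 was lost without cold array 2 or either non-stress array (adjusted p up to 0.141).

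Flavonoid and anthocyanin synthesis gave 0 calls among 5 measured genes of 17 listed, with a median of -1.15 and 1 unadjusted p below 0.05. UGT78D2, which adds glucose to flavonols and anthocyanidins, stood at 8.33 and 6.81 in non-stress and at 9.64 and 9.20 in cold, and its difference of 1.85 ± 0.82 did not pass (adjusted p = 0.244). AT4G14090 stood at 6.31 and 4.38 in non-stress and at 4.28 and 3.45 in cold, where the non-stress arrays were 1.93 apart and the groups only 0.101, and its difference was -1.48 ± 0.99 (adjusted p = 0.59).

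Of 3 measured genes for starch breakdown and raffinose synthesis, 2 fell. DPE1, a plastid enzyme that rearranges short glucans, stood at 7.85 and 7.84 in non-stress and at 5.55 and 5.39 in cold, a fall of 2.37 ± 0.40 (adjusted p = 0.000226). PWD, which adds phosphate to glucans and thereby opens starch granules to breakdown, stood at 7.56 and 7.21 in non-stress and at 5.50 and 6.13 in cold. The fall of PWD was 1.57 ± 0.47 on polysomes (adjusted p = 0.0407), lost without any 1 of the 4 arrays (up to 0.323), and in total RNA its difference was -0.50. The polysomal minus total difference was -1.07 with a 95% interval from -2.43 to 0.29, which includes 0. The sucrose phosphate synthase gene ATSPS4F differed by -0.67 and did not pass. Of 16 SWEET sugar transporter probe sets, SWEET1, a glucose transporter gene, was the 1 called and rose by 1.25 ± 0.36. Its difference ranged from 1.01 to 1.49 under the other settings, and the call rested on single arrays. The highest difference of the list, 1.79, did not pass.

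Nuclear photosynthesis genes gave 0 calls in limma among 9 measured genes of 47 listed, with a median of 0.00 and 0 unadjusted p-values below 0.05. SBPASE and LHCB4.2, of the Calvin cycle and the light-harvesting antenna, had the largest differences of the list, 0.58 and 0.48 (adjusted p = 0.45 and 0.622). Of 19 further nuclear genes for chloroplast proteins, 2 fell, and both act in cyclic electron flow around photosystem I. NdhS, a subunit of the chloroplast NDH complex, stood at 10.56 and 10.63 in non-stress and at 9.07 and 9.33 in cold, a fall of 1.40 ± 0.25 (adjusted p = 0.000488). PGRL1B fell by 1.59 ± 0.36 from 6.01 and 6.96 to 4.89 and 4.90, a call lost without non-stress array 2 or with the 4 arrays fitted alone (adjusted p up to 0.188).

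Transcripts of the plastid genome gave 0 calls among 69 probe sets, of which 2 had an unadjusted p below 0.05. In polysomal RNA of atcsp1-1, 41 were lower and 28 higher at any size, with a median of -0.10. In total RNA of the mutant 64 of the 69 were lower, in polysomal RNA of HF-RPL18 66 were, and in that of CSP1-FH 29 were, with medians of -0.23, -0.44 and 0.06. The side on which the median of atcsp1-1 polysomal RNA fell rested on the non-stress arrays, at 0.17 without non-stress array 2 and -0.31 without non-stress array 1. The largest differences, those of rpl33 and psaJ, were -1.23 and -1.36 (adjusted p = 0.0802 and 0.311), and passed under 4 and 2 of 14 other settings. Of 23 probe sets of the mitochondrial genome, ccb452, a gene for cytochrome c maturation, fell by 1.24 ± 0.35 (adjusted p = 0.0299), and the median was -0.14. Its difference ranged from -1.57 to -0.92 under the other settings, and the call rested on single arrays. That 1 call is 4.35% of the list, near the 3.36% called lower over all probe sets.

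Genes for translation and RNA handling were few among the named probe sets. PRH75, a nucleolar DEAD-box RNA helicase gene, was the 1 measured gene of the ribosome biogenesis list. It stood at 7.05 and 6.42 in non-stress and at 8.89 and 8.04 in cold. The difference of 1.73 ± 0.54 fell short of the threshold (adjusted p = 0.0538) but passed it under 8 of 14 other settings. The same difference was 1.41 in total RNA of the mutant, and in polysomal RNA it was 0.83 in HF-RPL18 and 1.18 in CSP1-FH. EIF4A-2, a gene for the initiation factor helicase, differed by 0.68 and did not pass.

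Among regulators and signalling genes, the iron-deficiency regulator gene PYE (AT3G47640) stood at 5.89 and 6.19 in non-stress and at 3.45 and 3.55 in cold. It fell by 2.54 ± 0.58 (adjusted p = 0.00614, and up to 0.0715 without cold array 1 or non-stress array 2). It was the 1 called gene of 6 iron-response regulators, a list put together after values had been seen. BHLH101 of the same list stood at 3.03 and 4.82 in non-stress and at 2.65 and 2.64 in cold, which did not pass (adjusted p = 0.303).

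RALF-like peptides are small secreted signals that receptor kinases of the FERONIA family perceive. Of 11 such genes, again a list made after values had been seen, 3 fell and 0 rose. RALFL34 stood at 10.48 and 10.30 in non-stress and at 9.15 and 9.43 in cold, a fall of 1.10 ± 0.22 (adjusted p = 0.00161). RALFL32 and RALFL31 fell by 1.62 and 1.36, each with an adjusted p of 0.0495, and any 1 array left out ended both calls (up to 0.414 and 0.271). Of 9 plant U-box E3 ligases, which tag proteins for degradation, 1 rose and 1 fell, and the highest difference of the list, 1.99, did not pass. PUB22 rose by 1.90 ± 0.40 from 4.01 and 3.82 to 5.80 and 5.84, and PUB24 fell by 1.86 ± 0.47 from 5.41 and 5.58 to 3.96 and 3.32. Both are known as brakes on immune signalling. The call of PUB24 was lost without cold array 2 or either non-stress array (adjusted p up to 0.198).

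Among the remaining families, TET3 was the 1 called gene of 15 tetraspanins, membrane proteins, and rose by 1.66 ± 0.28 (adjusted p = 0.000262). BGLU40 was the 1 called gene of 22 beta-glucosidases and fell by 2.06 ± 0.31 (adjusted p = 7.06e-05). The highest difference of that list, 2.20, lay on the other side and did not pass. SCPL49 was the 1 called gene of 29 probe sets for serine carboxypeptidase-like proteins and fell by 1.71 ± 0.29 (adjusted p = 0.000284). The 1 call made up 4.55% of the beta-glucosidases and 3.45% of the serine carboxypeptidase-like proteins. Both are near the 3.36% called lower over all probe sets. For 7 tubulin genes, 7 WRKY factors, 8 calmodulin-like proteins and 2 heat shock genes there were 0 calls in limma, with 3, 2, 0 and 0 unadjusted p-values below 0.05. Among these, TUA6 differed by -1.37 and TUA1 by 1.05 (adjusted p = 0.0766 and 0.0685), and the WRKY gene with the largest difference, WRKY22, by 0.86.

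**Figure D4:**
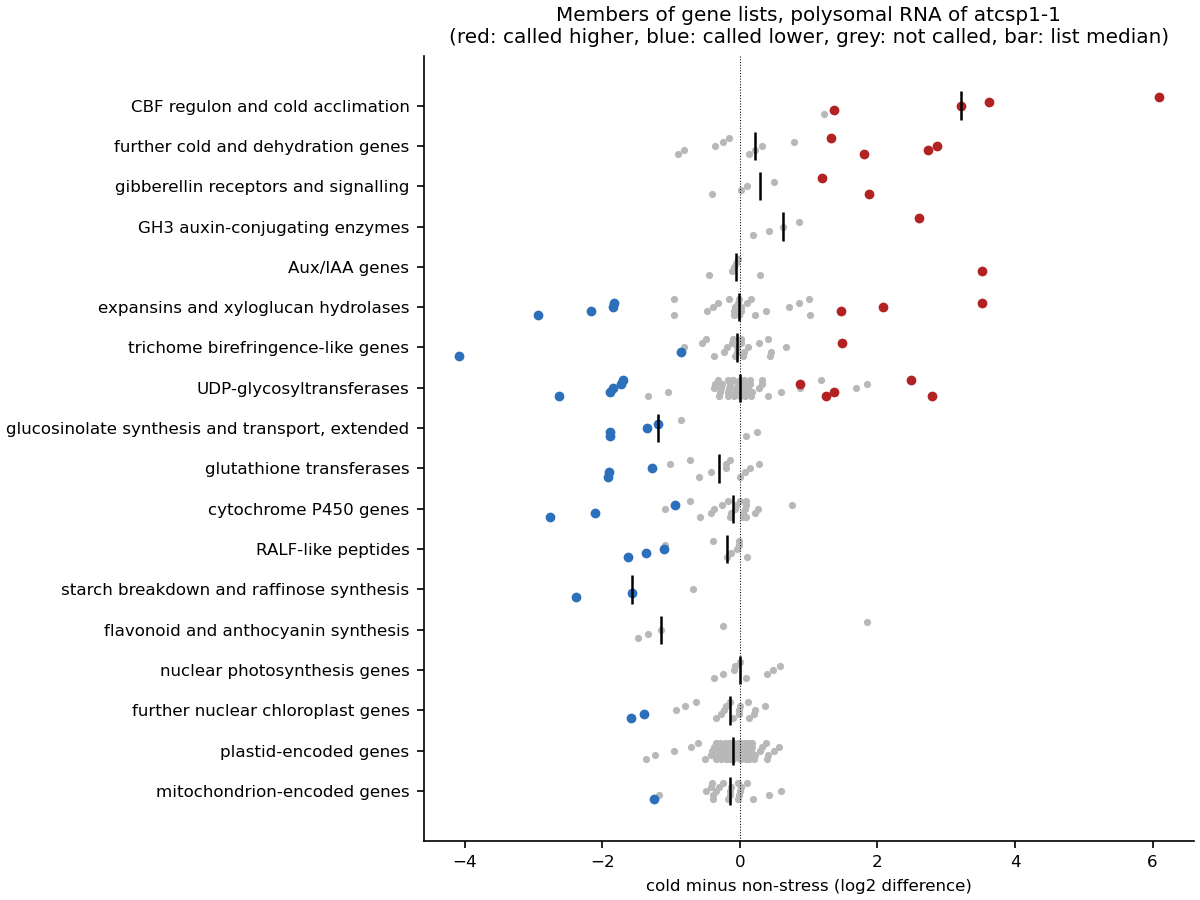
Each point is a member probe set of a gene list, placed by its cold minus non-stress difference (log2) in polysomal RNA of atcsp1-1. Red is called higher, blue called lower, grey not called, and the bar is the list median, which is 3.21 for the CBF regulon, -1.57 for starch breakdown 0.00 for the nuclear photosynthesis genes and -0.10 for the plastid-encoded genes.

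Markers of single cell types gave 0 calls, and 1 guard cell marker had an unadjusted p below 0.05. Of 4 guard cell markers, AT1G22690 differed by 1.10 (adjusted p = 0.0553) and FMA by -0.36. AT1G22690 passed under 5 of 14 other settings, and differed by 1.19 in total RNA of the mutant and by 1.34 in polysomal RNA of HF-RPL18 (adjusted p = 0.0300 and 0.00175). The trichome marker TRY stood at 5.32 and 4.19 in non-stress and at 3.02 and 3.50 in cold, a difference of -1.49 (adjusted p = 0.351), against -1.92 in HF-RPL18 (adjusted p = 0.0496). The part of guard cells and trichomes in the results was not tested. The root hair gene EXPA7 differed by 0.01 and stayed near the bottom of the scale.

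The change on polysomes was set beside the change in total RNA of the same line, to see whether ribosome loading of single mRNAs shifted apart from their amount. Total RNA of atcsp1-1 had 821 higher and 806 lower probe sets (3.61% and 3.54%, together 7.15%). Of the probe sets higher on polysomes, 573 were also called higher in total RNA, 86.2% of the polysomal and 69.8% of the total list. Of those lower on polysomes, 584 were also called lower, 76.4% and 72.5% of each list. None was called in opposite directions. The labels do not say whether arrays of the same number in both pools came from the same plants. The differences between array 2 and array 1 correlated across the polysomal and total pools at 0.508 in non-stress and 0.467 in cold. The main fit took all arrays as independent.

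A test of polysomal minus total response called 0 probe sets in limma, and 46 had an unadjusted p below 0.05. The lowest adjusted p was 1. Over the 1429 probe sets called on polysomes the 95% interval of this difference reached a median of 1.03 to either side, and it excluded 0 for 8 of them. The count of 46 lies far below the share of 0.05 of the 22746 probe sets expected without any difference. The test was thus too cautious, and its intervals are likely too wide. The genes with the lowest unadjusted p were AT5G01350 and AT5G08600, whose difference was lower on polysomes, and AT3G16700 and AT2G40020, whose difference was higher there. AT5G01350 stood at 8.02 on both non-stress arrays and at 7.23 and 7.95 in cold, so it differed by -0.43 on polysomes and by 0.88 in total RNA (difference -1.30, 95% interval -2.08 to -0.53). They were picked for their p-values among 13513 probe sets with 1 gene and did not pass adjustment.

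The question whether loss of CSP1 alters the cold response on polysomes was put by comparison with both tagged lines. The study has no arrays of an untagged line without the mutation. Loss of CSP1 thus cannot be told apart from the tagged ribosomal protein of HF-RPL18 or the constitutively expressed CSP1 of CSP1-FH. Polysomal RNA of HF-RPL18 had 957 higher and 1104 lower probe sets (4.21% and 4.85%, together 9.06%), with 3 arrays per group, and that of CSP1-FH had 604 and 438 (2.66% and 1.93%, together 4.58%). Of the 665 probe sets higher in atcsp1-1, 570 were higher in HF-RPL18 (85.7% and 59.6% of each list) and 493 in CSP1-FH (74.1% and 81.6%). Of the 764 lower, 621 were lower in HF-RPL18 (81.3% and 56.2%) and 394 in CSP1-FH (51.6% and 90.0%). A set of 443 higher and 346 lower probe sets was called in all 4 comparisons. In atcsp1-1 polysomal RNA alone, 105 were called, 30 higher and 75 lower. All 105 had the same sign in the other 3 comparisons. As they were chosen for not being called elsewhere, no test of a difference is given over them.

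The direct tests of the difference between lines called 0 probe sets in limma. Against HF-RPL18, 134 had an unadjusted p below 0.05, against CSP1-FH 67, and the lowest adjusted p was 1 in both. Both counts lie far below the share of 0.05 of the 22746 probe sets expected without any difference. The tests were thus too cautious here, and their intervals are likely too wide. The 0 calls do not show that the lines responded alike. Over the 1429 called probe sets, the 95% interval of the difference reached a median of 0.939 to either side against HF-RPL18 and 1.03 against CSP1-FH, and excluded 0 for 23 and 11 probe sets. The largest differences among them were 1.76 and 2.57 in size.

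The 2 genes with the lowest p in each direction against HF-RPL18 were AT3G32000 and NCRK, lower in atcsp1-1, and AT4G12700 and AT1G62085, higher there. AT3G32000 differed by -0.44 in atcsp1-1 and 0.38 in HF-RPL18 (unadjusted p = 0.00159), at levels of at most 3.26 in the mutant. NCRK, a receptor-like kinase gene, differed by -0.59 and 0.25 (unadjusted p = 0.00587), at levels of at most 3.13. AT1G62085, better expressed, stood at 4.99 and 4.32 in non-stress and at 5.49 and 5.24 in cold, a difference of 0.70 against -0.11 in HF-RPL18. AT5G60460, singled out after its values were seen, had the largest difference from HF-RPL18 among probe sets called in atcsp1-1. It stood at 8.58 and 8.81 in non-stress and at 6.63 and 6.99 in cold, a fall of 1.88, and differed by -0.12 in HF-RPL18 (difference -1.76, 95% interval -2.98 to -0.54, unadjusted p = 0.00625), by -1.35 in total RNA of the mutant and by -1.38 in CSP1-FH. Against CSP1-FH the lowest p was that of XTH18, a xyloglucan hydrolase gene that differed by 0.72 in atcsp1-1 and 2.19 in CSP1-FH (unadjusted p = 0.0124), followed by AT4G27590, AT3G44950 and AT1G09470. None of these passed adjustment.

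To compare the sizes of the responses over genes that the atcsp1-1 arrays had not chosen, the probe sets called in total RNA of CSP1-FH were taken, which are 3.17% (higher) and 2.52% (lower) of all probe sets, together 5.69%. All 722 that were higher there were also higher on polysomes of atcsp1-1, and 536 of them were called. The median rise was 1.57 on polysomes of atcsp1-1, 1.71 in its total RNA, 1.54 on polysomes of HF-RPL18 and 1.66 in total RNA of HF-RPL18. All 573 that were lower there were lower on polysomes of atcsp1-1, and 462 were called. Their medians were -1.46, -1.50, -1.31 and -1.36. On polysomes, the mutant had the larger rise than HF-RPL18 for 387 of 722 and the larger fall for 392 of 573. Its polysomal response was larger than its total RNA response for 220 and 219. As the set was chosen in total RNA, which can favour that pool, the counts of 220 and 219 cannot show a smaller response on polysomes. The difference from HF-RPL18 had a median of 0.04 over the 722 and -0.12 over the 573, beside -0.04 over all probe sets. HF-RPL18 has an array 3 that atcsp1-1 lacks. Its polysomal cold array 3 responded less in some genes, as in AT5G62280 (5.57 against 8.12 and 8.07). In others it did not, as in AT5G20790 (9.45 against 9.36 and 8.18). Its part in these counts was not tested.

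**Figure D5:**
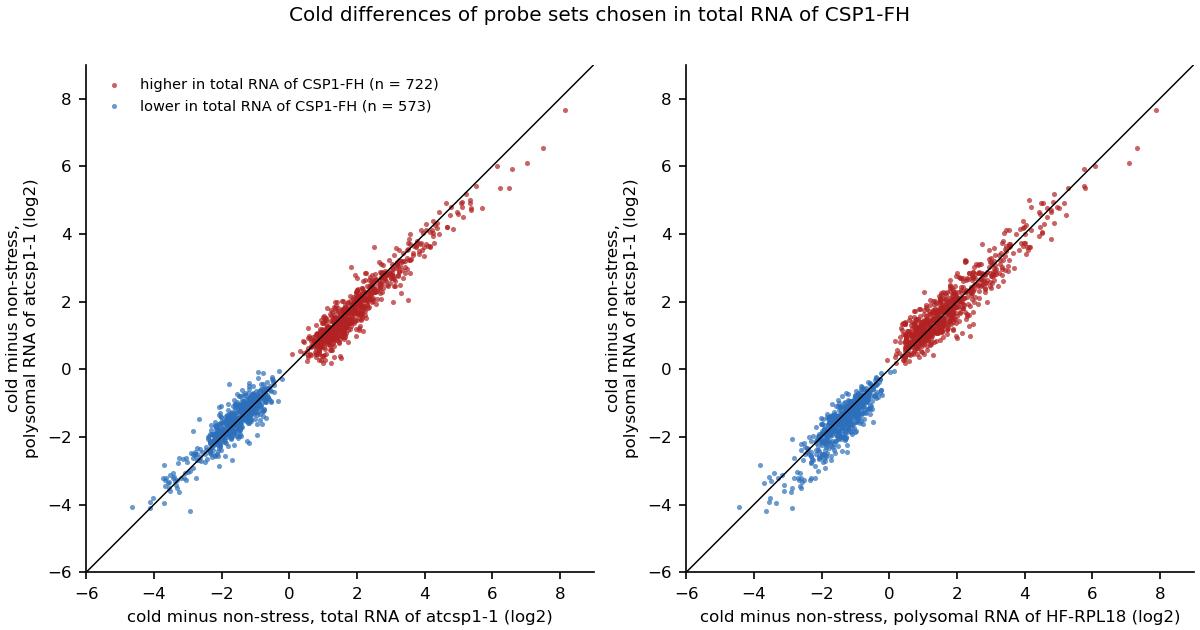
Each point is a probe set called higher (722, red) or lower (573, blue) in cold in total RNA of CSP1-FH, with its cold minus non-stress difference (log2) in polysomal RNA of atcsp1-1 on the vertical axis. The horizontal axis is the same difference in total RNA of atcsp1-1 on the left and in polysomal RNA of HF-RPL18 on the right, and the points follow the line of equal response in both.

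Arrays with the same replicate number deviated together across lines and pools, so these comparisons are not independent although they share no array. On non-stress arrays of total and polysomal RNA, GI stood between 6.28 and 6.64 on the 6 arrays numbered 2 and between 3.31 and 3.89 on the 8 others. TBL26 stood between 7.51 and 8.16 against 8.51 and 9.79. What the numbers stand for is not given in the sources used here.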

How the data were processed

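Each RNA sample was labelled and hybridised to its own ATH1 array, per the labels' protocols. The authors deposited one log2 value per probe set and array, produced by RMA, per the submitters' processing notes. For RMA the version and the set of arrays normalised jointly are not stated in those sources. The values were used as deposited.

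In R 4.3.3, limma 3.58.1 (lmFit, contrasts.fit, eBayes) was fitted to all 38 arrays with a mean for each of 16 groups and a shared spread (22 residual and 5.22 prior degrees of freedom). P-values were 2-sided, adjusted by Benjamini-Hochberg over 22746 probe sets, and called below 0.05. With 2 arrays per group an exact permutation test cannot reach 0.05, so it was not used, and the p-values rest on a spread borrowed from the other groups. The design text calls the replicates biological. The script was tested on simulated data.

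The annotation gave 1 gene for 13513 probe sets (59.4%), several for 503 and none for 8730, and 13436 matched RefSeq. Genes named are, among probe sets with 1 gene, the 12 largest rises and 12 largest falls, up to 4 called members of each list with the largest differences (or, with none called, 2 members), the 2 lowest p-values in each direction for each difference of responses, and 2 unnamed probe sets each way. The members and the 49 lists (35 set in the design, 11 taken from annotation names, 3 made after values were seen) were chosen with earlier results of these data known, and 39 lists had a measured member. No sequences were used here, so the planned promoter motif search was not run. Figures were drawn with matplotlib.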

Additional observations from a re-analysis of the deposited data

How the results depend on the processing

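The count of called probe sets in the cold response of polysomal RNA in atcsp1-1 (1429, 665 higher and 764 lower) depended on which arrays gave the spread. Without the CSP1-IP arrays it was 2599 (1087 and 1512, with 1419 of the 1429 calls kept), and with array weights 2574 (1103 and 1471). A minimum difference of 1.2-fold (treat) left 848 (434 and 414). Leaving out 1 array at a time, where the lone array is assumed to vary like the other groups, gave 709 to 796 calls, 358 to 405 higher and 326 to 409 lower. The other settings stayed within 1.5 times of it, at 1307 with the 4 arrays fitted alone, 1324 with an intensity trend, 1432 with centred arrays, 1476 with cyclic loess, 1560 with a filter on dim probe sets and 1878 with polysomal arrays only, a setting chosen after seeing the data. The replicate numbers do not state a pairing. The deviations of same-numbered cold and non-stress polysomal arrays correlated at 0.232, and the replicate block gave 1979 calls (930 and 1049). The tests of a difference between lines or pools called 0 probe sets under each setting run, arrays left out 1 at a time included. The polysomal minus total test could not be run with polysomal arrays only. Of 75 called named genes, 44 kept their call in all 14 settings, 31 lost it in at least 1, and 0 changed direction. Beside leaving out arrays, treat ended the calls of ccb452, COR15B, CYP71B6, EXPA8, GH9B8, GSTU16, PWD, RALFL31, RALFL32, SRC2, SWEET1 and TBL35, centring those of GSTU16, PWD, RALFL31, RALFL32 and TBL35, and the replicate block that of RALFL31. Fitting the 4 arrays alone ended those of ccb452, GH3.3, GI, GSTU16, GTR1, PGRL1B, RALFL32, SRC2 and TBL35, the intensity trend those of RALFL31 and TBL35, and polysomal arrays only that of TBL35. The planned motif search was not run. With 2 arrays per group, small differences in response could not be resolved. The spread used included the CSP1-IP arrays, and without them the tests of a difference also called 0 probe sets.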

Other observations

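Several called genes lay next to each other. Among 5818 pairs of neighbouring protein-coding genes with both genes measured, in the gene order of RefSeq, 7 pairs were called higher together and 11 lower together on polysomes of atcsp1-1. Of 307 neighbours of a higher gene, 14 were higher (4.56%), against 2.64% over all neighbours. Of 405 neighbours of a lower gene, 22 were lower (5.43%), against 3.48%. Each pair was counted from both of its genes, so the 14 and 22 are the same 7 and 11 pairs. Neighbours called the opposite way made up 3.26% and 2.47%. The pairs include AT1G30250 with AT1G30260 (-3.92 and -3.26), AT4G33660 with AT4G33666 (-3.07 and -3.21), GT72B1 with TBL26 (-2.62 and -4.08), AT5G62350 with AT5G62360 (1.71 and 4.55) and AT2G40600 with EXPA8 (-1.37 and -2.93). These pairs were chosen after their values were seen, no test was run, and array probes of neighbouring paralogs may bind both transcripts.

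The arrays numbered 2 stood apart in a small set of genes. On the non-stress arrays of total and polysomal RNA in all 3 lines, 7 probe sets were higher by more than 1 on every array numbered 2 than on every other array, and 8 were lower by more than 1. Of the 7, 4 were also called higher in cold on polysomes of atcsp1-1, against 2.92% of all probe sets. Of the 8, 0 were called in either direction. AT5G62360 stood between 8.80 and 9.88 on the arrays numbered 2 and between 5.07 and 6.94 on the others, and CHIL, a gene of flavonoid synthesis that was among the 8, stood between 5.79 and 6.56 against 8.35 and 9.43. COR27, in neither set, stood between 7.28 and 8.22 against 6.07 and 6.65. On the cold arrays 10 probe sets were higher in this way, of which 2 were called higher in cold, and 2 were lower, of which 0 were called. The cause was not tested.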
